A study of Homo sapiens
Rattus norvegicus and Homo sapiens with 10 samples.

Results

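Levels of 10 genes of bone morphogenetic protein (BMP) signalling were followed in brain xenografts of the human glioblastoma line U251N. They were the transcriptional inhibitors ID1, ID2, ID3 and ID4, the ligands BMP2 and BMP4, the receptors BMPR1A and BMPR2, the secreted antagonist GREM1 and the intracellular inhibitor SMAD6. The genes were chosen by name, and all 10 were found among the 62754 genes of the table. Of these, 9 could be tested between tumours, and GREM1 had too few counts. The tumours grew in the brains of adult female RNU/RNU rats, which are athymic and keep the other cells of the host. The 3 primary tumours were not ablated, and the 3 recurrent tumours had grown back after laser interstitial thermal therapy (LITT) guided by diffusion-weighted imaging. The other libraries were 3 control brains described as tumour-free, of which replicate 1 was a failed graft and the other two procedural controls, and 1 culture of U251N kept in vitro. All tumours came from the same cell line, and no label ties a library to an animal, so p-values measure the spread between these samples, which may be technical in part.

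BMP ligands are secreted dimers that bring together type I receptors such as BMPR1A and the type II receptor BMPR2. The receptors phosphorylate SMAD1, SMAD5 and SMAD9, which enter the nucleus with SMAD4 and switch on targets, among them the ID genes and SMAD6. ID proteins carry a helix-loop-helix but no DNA-binding region, so they hold E proteins and other basic helix-loop-helix factors off DNA. SMAD6 closes a negative feedback loop, and gremlin 1 (GREM1) binds BMP2 and BMP4 outside the cell. In glioblastoma, BMPs are known for driving astrocytic differentiation, and ID proteins for marking cells that renew themselves.

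The 4 ID genes are related in sequence, so the part of the coding sequence where they are most alike is shown first, because the estimated counts depend on dividing reads between relatives. The stretches are 120 bases long, lie in the helix-loop-helix region, were read from GENCODE release 29 transcripts and run 5′ to 3′. Capitals mark the 68 of 120 positions that are identical in all 4 genes.
ID1: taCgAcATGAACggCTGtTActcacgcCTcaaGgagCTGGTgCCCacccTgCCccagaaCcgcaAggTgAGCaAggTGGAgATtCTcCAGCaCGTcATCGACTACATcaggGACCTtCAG
ID2: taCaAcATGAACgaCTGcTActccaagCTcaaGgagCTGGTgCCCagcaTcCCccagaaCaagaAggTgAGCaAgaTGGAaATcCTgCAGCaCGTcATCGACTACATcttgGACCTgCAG
ID3: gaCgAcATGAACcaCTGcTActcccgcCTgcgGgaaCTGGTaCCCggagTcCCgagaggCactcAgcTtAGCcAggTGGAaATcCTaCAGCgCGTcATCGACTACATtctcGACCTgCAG
ID4: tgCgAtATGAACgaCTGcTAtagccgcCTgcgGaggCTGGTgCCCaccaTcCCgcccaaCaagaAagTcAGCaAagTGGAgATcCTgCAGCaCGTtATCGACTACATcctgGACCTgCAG
On GRCh38 these exonic coding stretches lie at chr20:31605586-31605705 on the plus strand for ID1, chr2:8682274-8682393 (plus) for ID2, chr1:23559184-23559303 (minus) for ID3 and chr6:19837950-19838069 (plus) for ID4. Within the stretch ID1 and ID2 share 83.3% of bases, the most alike pair, and ID1 and ID3 share 69.2%, the least alike. Between whole coding transcripts, the longest run shared without a mismatch was 21 bases, between ID1 and ID2, and 13 to 19 bases for the other 5 pairs, shorter than a sequenced read. The other genes lie, in GRCh38, at chr20:6767664-6780280 on the plus strand (BMP2), chr14:53949736-53958761 on the minus strand (BMP4), chr10:86756601-86932838 (BMPR1A, plus), chr2:202376936-202567751 (BMPR2, plus), chr15:32717974-32745107 (GREM1, plus) and chr15:66702228-66782848 (SMAD6, plus). The table gave each gene by an Ensembl identifier.

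Tumour libraries held 20321590 to 39714714 estimated counts, the culture 65058642, and the controls far fewer, 1358753 to 4158124. Levels are CPM, counts scaled to a common library total, and a gene at 0 may still hold up to 3 counts, or 0.0755 to 0.148 CPM in the tumours and 0.721 to 2.21 CPM in the controls. Graft reads, as the labels give them, made up 42.52% to 64.4% of a primary tumour and 29.44% to 42.67% of a recurrent one. Control replicate 3 held 4.9% graft reads against 0.33% and 0.55% in the other two, and it stands apart in the values below. Structural small RNAs took 92.63% and 89.76% of the counts in control replicates 1 and 2, 31.7% in control replicate 3 and 6.4% to 14.51% in the tumours. All 8 markers of the line fixed for this work, such as SOX2, NES and VIM, had counts in the tumours, with summed levels of 7793 to 9470 CPM, and in the culture with 9769 CPM. Over the 3 controls all 8 also had counts, with sums of 99.4 to 6412 CPM. Control replicate 3 held 91.1 CPM of SOX2, 1484 of NES and 2598 of VIM, so these markers do not set it clearly apart from the tumours. Of 6 endothelial markers, CLDN5 was at 0 in all 6 tumours and the list summed to 7.07 to 17.2 CPM in primary and 8.7 to 12.1 CPM in recurrent tumours, against 6.67 CPM in the culture. Of 6 microglia and macrophage markers, 4 were at 0 in every tumour, and the 3 haemoglobin genes were at 0 in all 10 libraries. Those 4 markers (AIF1, CX3CR1, P2RY12 and C1QA) and CLDN5 were also at 0 in all 3 control brains. A 0 for these genes therefore cannot show whether such host cells were present in a tumour. In bulk tissue, fewer cells of a type and less RNA per cell cannot be told apart.

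Recurrent tumours were first compared with primary ones, the contrast the study was designed around. Of the 9 BMP and ID genes tested, 0 passed edgeR's quasi-likelihood test at an adjusted p of 0.05, where 0.00628% of all 15928 genes passed. DESeq2 and limma-voom also called 0 of the 9. At an unadjusted p under 0.05 there was 1 of 9, ID3, against 8.38% of all genes in edgeR, 9.64% in DESeq2 and 8.86% in limma-voom. Primary and recurrent values overlapped for all 9, while 15.4% of all genes had groups that did not overlap, 7.42% with recurrent tumours lower and 7.94% with them higher. The median log2 difference over the 9 genes was -0.28, beside -0.01 over all tested genes. Of the 9, 5 lay below 0, beside 51% of all genes. Levels in this comparison are TMM CPM, CPM of a library total scaled by the trimmed mean of M values, and differences are recurrent minus primary.

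Of the ID genes, ID3 had the highest level and the lowest log2 difference. It stood at 60.1, 82.0 and 76.6 TMM CPM in primary replicates 1, 2 and 3 and at 62.8, 40.8 and 32.7 TMM CPM in the recurrent tumours. Recurrent replicates 2 and 3 lay below every primary tumour, while recurrent replicate 1 lay inside the primary range, so the groups overlapped. Means were 72.9 ± 11.4 and 45.4 ± 15.6 TMM CPM (SD, n = 3 each). The log2 difference was -0.68 (SE 0.23; edgeR adjusted p = 0.521). The adjusted p was 0.211 in DESeq2 and 0.0032 in edgeR with no filter on low counts, so the call depends on that filter. Without recurrent replicate 1 the log2 difference was -0.99 (edgeR adjusted p = 0.116), and without any other single tumour it lay between -0.81 and -0.51. The primary tumours also held more graft reads, and with the graft percentage in the edgeR model the difference was -0.74 (adjusted p = 0.668). On library totals without TMM the primary tumours lay at 61.5 to 78.5 CPM and the recurrent ones at 32.7 to 61.3 CPM, so there the groups just separated.

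ID1 stood at 30.1, 31.0 and 48.2 TMM CPM in primary and 30.4, 36.9 and 22.8 TMM CPM in recurrent tumours. Primary replicate 3 was the highest and recurrent replicate 3 the lowest, with the other 4 tumours close together. The log2 difference was -0.28 (SE 0.23; edgeR adjusted p = 0.728), and it turned to 0.24 with graft percentage in the model and to -0.03 without primary replicate 3. ID2 varied most of the 4, from 1.92 TMM CPM in recurrent replicate 1, where it had 38 counts, to 10.9 in primary replicate 2 and 10.8 in recurrent replicate 2. The highest tumour was 5.69-fold above the lowest, and the recurrent group alone held nearly that whole range. The log2 difference was -0.46 (SE 0.51; edgeR adjusted p = 0.801). Without recurrent replicate 1 it was -0.04, and with graft percentage in the model 0.22. ID4 stood at 12.3, 9.04 and 8.82 TMM CPM in primary and 8.72, 14.3 and 7.26 TMM CPM in recurrent tumours, with group means of 10.1 ± 1.96 and 10.1 ± 3.73 (SD, n = 3 each). Its log2 difference of 0.01 (SE 0.28; edgeR adjusted p = 0.994) had no stable sign across the alternatives.

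The 2 ligands had low counts. BMP2 stood at 4.27, 2.58 and 5.06 TMM CPM in primary tumours and at 6.0, 1.75 and 2.09 TMM CPM in recurrent ones, from 46 to 206 counts per library. Recurrent replicate 1 was the highest of all 6 tumours and the other two recurrent tumours were the lowest. The log2 difference was -0.29 (SE 0.50; edgeR adjusted p = 0.876), and it was -1.05 without recurrent replicate 1. BMP4 stood at 1.69, 3.51 and 1.62 TMM CPM in primary and at 2.42, 0.838 and 1.64 TMM CPM in recurrent tumours, from 22 to 83 counts. Primary replicate 2 was the highest, and the log2 difference of -0.48 (SE 0.53; edgeR adjusted p = 0.801) shrank to -0.03 without it and was -1.29 with graft percentage in the model.

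The receptors varied least from tumour to tumour. BMPR1A, a type I receptor, kept within 39.9 to 43.0 TMM CPM in primary and 39.5 to 47.7 TMM CPM in recurrent tumours, a log2 difference of 0.03 (SE 0.13; edgeR adjusted p = 0.951). Its coefficient of variation over the 6 tumours was 7.26%, beside a median of 14.0% and a 5th percentile of 6.05% for the 6644 tested genes of 20 to 200 CPM. BMPR2, the type II receptor, had 124, 92.3 and 140 TMM CPM in primary and 143, 124 and 129 TMM CPM in recurrent tumours, a log2 difference of 0.15 (SE 0.17; edgeR adjusted p = 0.794), with primary replicate 2 the only tumour under 100. In the same band, BMPR2 varied by 14.4%, near the median of 14.0%. There ID3 varied by 32.7% and ID1 by 25.8%, beside a 95th percentile of 29.4%. ID2 varied by 49.9% and ID4 by 26.4%, beside a 95th percentile of 44.3% for genes of 5 to 20 CPM. These are descriptions of 6 tumours from both groups.

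Of the inhibitors, SMAD6 stood at 2.16, 2.66 and 4.08 TMM CPM in primary and at 2.47, 4.54 and 2.17 TMM CPM in recurrent tumours. Primary replicate 3 and recurrent replicate 2 were high, 1 in each group, and the log2 difference was 0.04 (SE 0.42; edgeR adjusted p = 0.982). GREM1 had 0 counts in 4 of the 6 tumours, 1 count in primary replicate 3 and 13 counts in recurrent replicate 3, and 0 in the culture and in all 3 controls. It therefore failed the filter on low counts and was not tested.

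**Figure D1:**
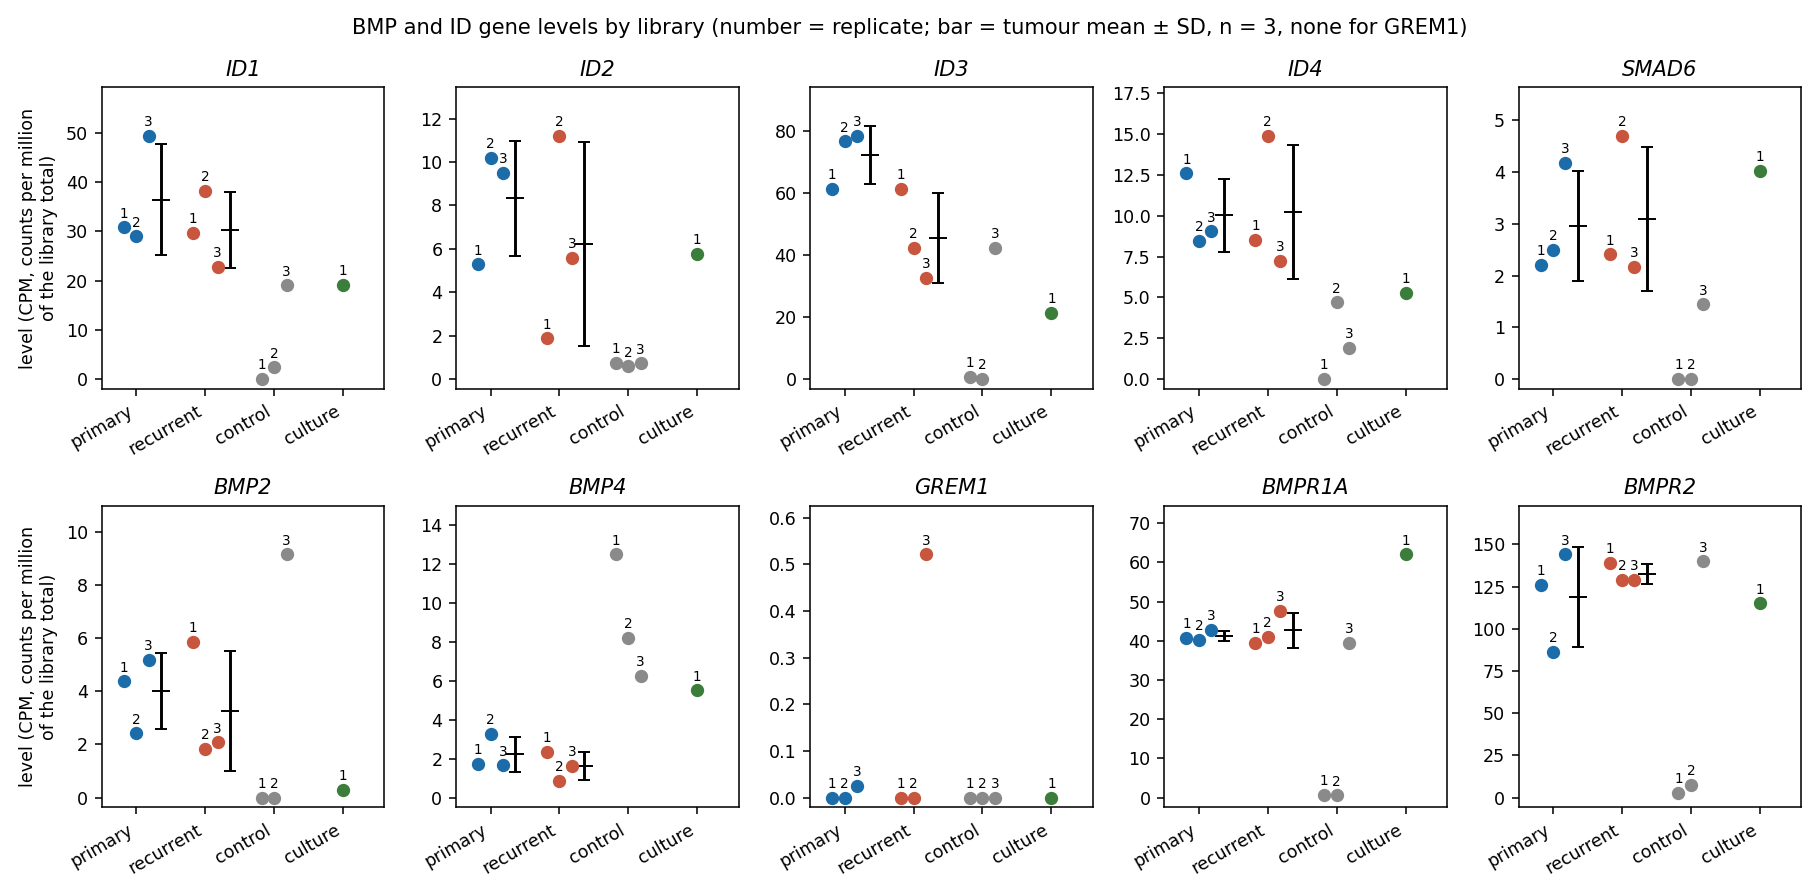
Levels of the 10 genes in every library, in CPM of the library total on a linear axis, with 1 point per library (number = replicate) and the mean ± SD (n = 3) of each tumour group as a bar, drawn for every gene but GREM1, which is at 0 or 1 count in 5 tumours. The ID3 points of the recurrent tumours lie at 32.7 to 61.3 CPM and those of the primary tumours at 61.5 to 78.5 CPM, and control replicate 3 lies at 39.4 CPM for BMPR1A while the other controls lie under 1 CPM.

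Other genes of the pathway gave 0 calls in edgeR among 42 tested of a list of 57, with 5 at an unadjusted p under 0.05 and a median log2 difference of 0.01. The groups did not overlap for 6 of the 42, 5 with recurrent tumours lower and 1, RGMB, with them higher, beside the 15.4%, 7.42% and 7.94% of all genes, a share near the background. By rank and not by a call, the 4 with the smallest p were HEY1, FSTL1, DLX5 and BAMBI. HEY1, a target shared with Notch signalling, had means of 71.7 ± 8.07 and 48.9 ± 6.72 TMM CPM (SD, n = 3 each; log2 difference -0.55, SE 0.15, edgeR adjusted p = 0.476). FSTL1, a secreted modulator of BMPs, had 292 ± 12.1 and 218 ± 16.8 TMM CPM (-0.42, SE 0.14, edgeR adjusted p = 0.530). DLX5, a homeobox target of BMPs, had 4.38 ± 1.36 and 2.2 ± 0.366 TMM CPM (-1.0, SE 0.37, edgeR adjusted p = 0.572). BAMBI, a pseudoreceptor that blunts the signal and is itself a target, had 15.2 ± 1.31 and 11.3 ± 1.5 TMM CPM (-0.43, SE 0.18, edgeR adjusted p = 0.587). In all 4 the recurrent tumours lay below the primary ones without overlap. The secreted antagonists and modulators had 9 of 12 tested genes below 0, of which 0 passed. Picked after their values were seen, noggin (NOG) stood at -0.62 (SE 0.47), chordin (CHRD) at -0.79 (SE 0.57) and CRIM1 at 0.53 (SE 0.22). Of the signalling SMADs, named for their role, SMAD1 stood at 0.08 (SE 0.21), SMAD5 at -0.09 (SE 0.13), SMAD9 at -0.35 (SE 0.51) and SMAD4 at -0.07 (SE 0.15). The E proteins that ID proteins bind, also named for their role, stood at 0.02 for TCF3, 0.04 for TCF4 and 0.01 for TCF12, with SEs of 0.16 to 0.19.

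**Figure D2:**
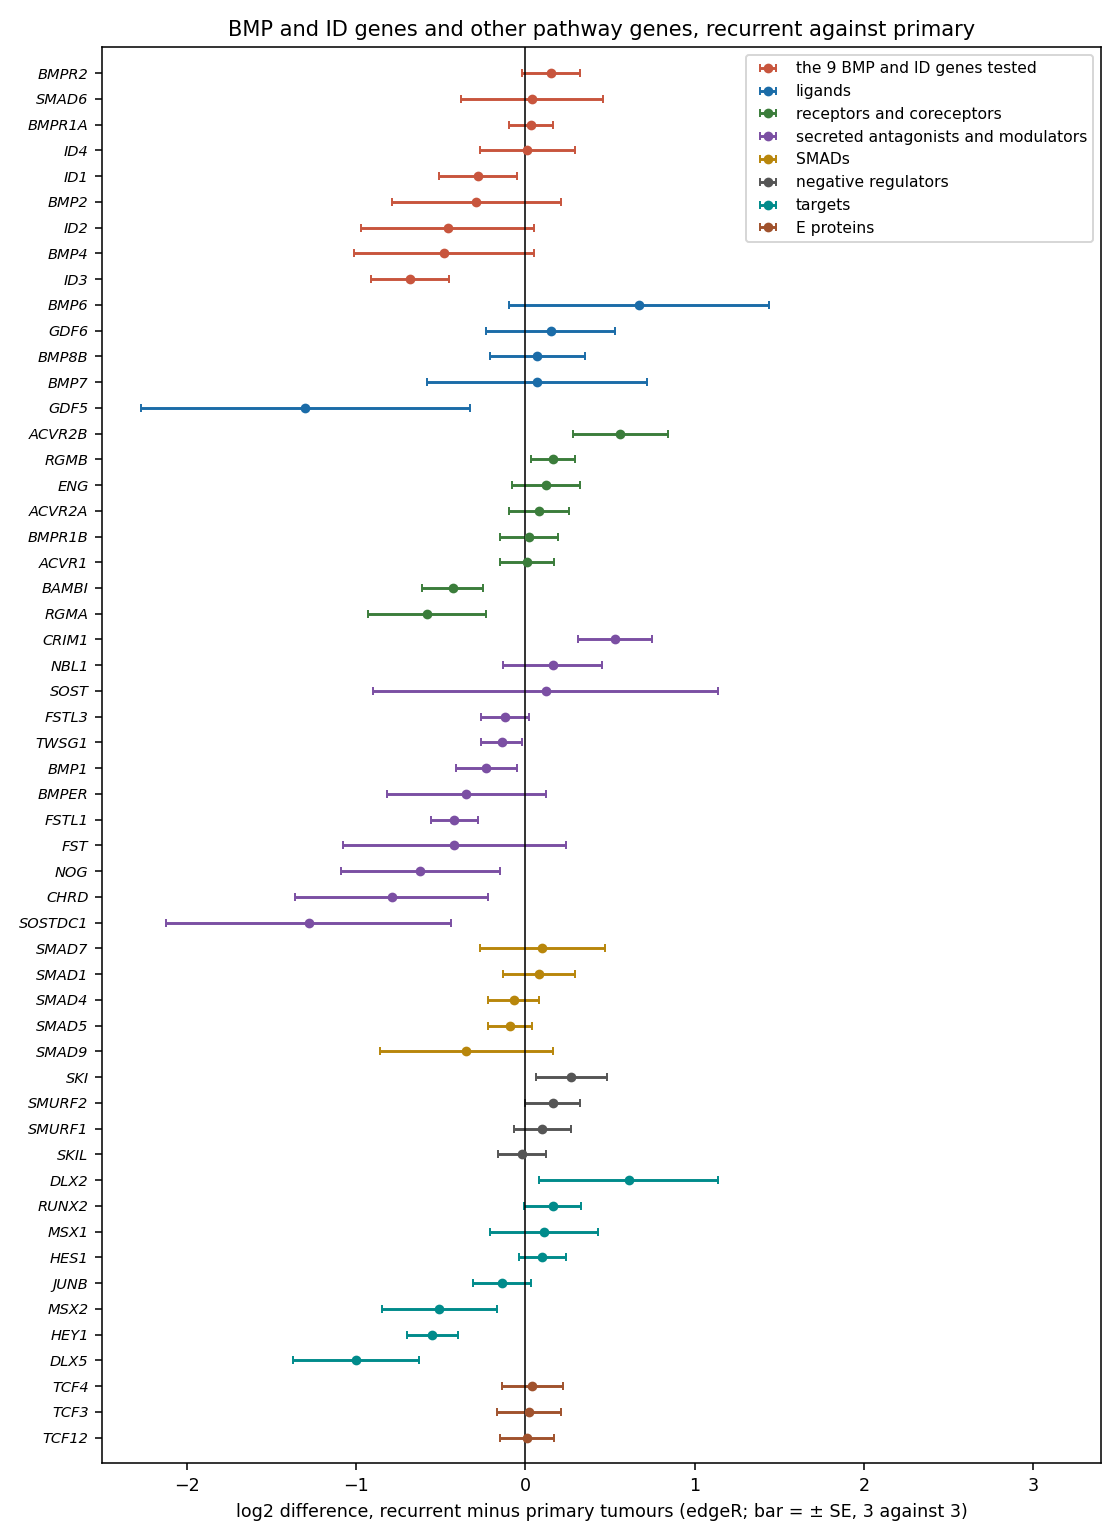
Log2 difference between recurrent and primary tumours (x axis, edgeR, bar = ± SE, 3 tumours against 3) for the 9 BMP and ID genes tested, the 42 other pathway genes tested and the 3 E proteins, coloured by role. BMPR1A and the E proteins lie within 0.04 of 0 and ID3 lies at -0.68, and none of the genes shown passed the adjusted test.

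A second comparison set the 6 tumours beside the culture of the same line. The culture is 1 library, so no test was possible, and its intervals cover counting error only. Levels here are library CPM, scaled by the library total alone. BMP2 was higher in the tumours, ID3, ID4 and ID1 were above the culture in every tumour, and BMP4 and BMPR1A were below it in every tumour. Of the 9 genes measured in this comparison, 2 had a tumour mean over 2-fold above the culture and 1 over 2-fold below, beside 7.03% and 18.4% of 19446 genes. Host RNA in tumour tissue and growth in the brain cannot be told apart in this design, beyond the host values given with the controls below.

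BMP2 had 19 counts in the culture, 0.292 library CPM (exact Poisson 95% interval 0.176 to 0.456), and 1.82 to 5.86 library CPM in the tumours. All 6 tumours lay over 2-fold above the culture, as did 2.08% of the genes, and the tumour mean of 3.62 ± 1.74 (SD, n = 6) was 12.4-fold higher. BMP4 had 359 counts in the culture, 5.52 library CPM (4.96 to 6.12), and 0.870 to 3.28 library CPM in the tumours, of which 5 lay over 2-fold below, while 6.53% of genes lay over 2-fold below in all 6. The log2 ratio of the tumour mean to the culture was 3.63 for BMP2 and -1.52 for BMP4. The balance between the 2 ligands, which needs no scaling between libraries, therefore differed. BMP2 made up 5.03% of the counts of both in the culture (Wilson 95% interval 3.24 to 7.72). In the primary tumours it made up 71.6% (64.1 to 78.1), 42.4% (34.6 to 50.5) and 75.7% (70.3 to 80.4), and in the recurrent tumours 71.3% (64.0 to 77.6), 67.6% (55.8 to 77.6) and 55.9% (45.8 to 65.6). The lowest tumour, primary replicate 2, had an interval well above that of the culture, and the primary and recurrent ranges overlapped. Per kilobase of the longest coding transcript, the share was 2.74% in the culture and 28.1% to 62.4% in the tumours. In control replicates 1 and 2 it was 0 of 17 and 0 of 14 counts, which allows up to 18.4% and 21.5% by the same interval, and in control replicate 3 it was 38 of 64 (59.4%, 47.1 to 70.5).

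**Figure D3:**
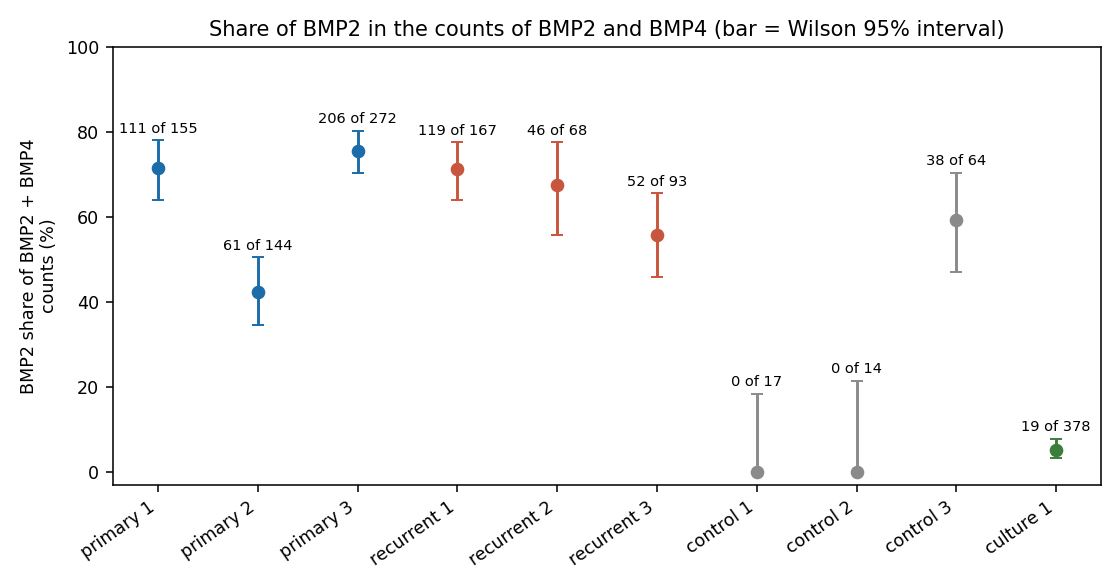
Share of BMP2 in the summed counts of BMP2 and BMP4 (y axis, %) in each library, with Wilson 95% intervals that cover counting error only and the counts printed above. The culture lies at 5.03%, the 6 tumours between 42.4% and 75.7%, and control replicates 1 and 2 at 0.

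ID3 stood at 21.4 library CPM in the culture (20.3 to 22.6) and at 32.7 to 78.5 in the tumours, above it in 6 of 6 and over 2-fold above in 4. The primary mean was 72.2 ± 9.33 and the recurrent mean 45.4 ± 14.6 library CPM (SD, n = 3 each), log2 ratios to the culture of 1.75 and 1.09. ID4 was at 5.30 library CPM in the culture (4.76 to 5.89) and 7.26 to 14.9 in the tumours, and ID1 at 19.1 (18.1 to 20.2) and 22.8 to 49.4. The log2 ratios of their tumour means to the culture were 0.93 and 0.80, and both genes were above the culture in 6 of 6 tumours. Of all genes, 16.7% lay above the culture in every tumour. ID2, at 5.76 library CPM in the culture (5.2 to 6.38), was above it in 3 of 6 tumours, so it did not share the direction of the other ID genes in every tumour. ID3 made up 52.8% of the counts of ID1 and ID3 in the culture (50.9 to 54.7) and 52.5% to 72.5% in the tumours, the lowest being recurrent replicate 2 at 52.5% (50.3 to 54.6).

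BMPR1A was lower in 6 of 6 tumours, at 39.4 to 47.7 library CPM against 62.0 (60.1 to 63.9) in the culture. The log2 ratio of its tumour mean to the culture was -0.56, and 34% of all genes lay below the culture in every tumour. BMPR2 differed little, at 86.3 to 144 library CPM against 115 (112 to 117). SMAD6 lay above the culture in 2 of 6 tumours, at 2.17 to 4.70 library CPM against 4.03 (3.55 to 4.55). Among other pathway genes measured here, 6 of 46 had a tumour mean over 2-fold above the culture and 12 over 2-fold below, beside the 7.03% and 18.4% of all genes. Genes past 2-fold in all 6 tumours were picked after their values were seen. GDF6, a BMP-family ligand, went from 0.384 library CPM (0.249 to 0.567) to 7.02 ± 2.80 (SD, n = 6), and BMP7 from 0.261 (0.152 to 0.418) to 1.58 ± 0.835. FSTL3, a secreted inhibitor of activins, went from 16.9 to 54.0 ± 5.75 library CPM. In the other direction, BMP6 went from 3.06 to 0.720 ± 0.453, the antagonist follistatin (FST) from 2.72 to 0.616 ± 0.252 and RUNX2, a bone-forming target of BMPs, from 145 to 47.7 ± 8.11 library CPM. ACVRL1, an endothelial type I receptor, had 22 counts in the culture and at most 1 count in any tumour.

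**Figure D4:**
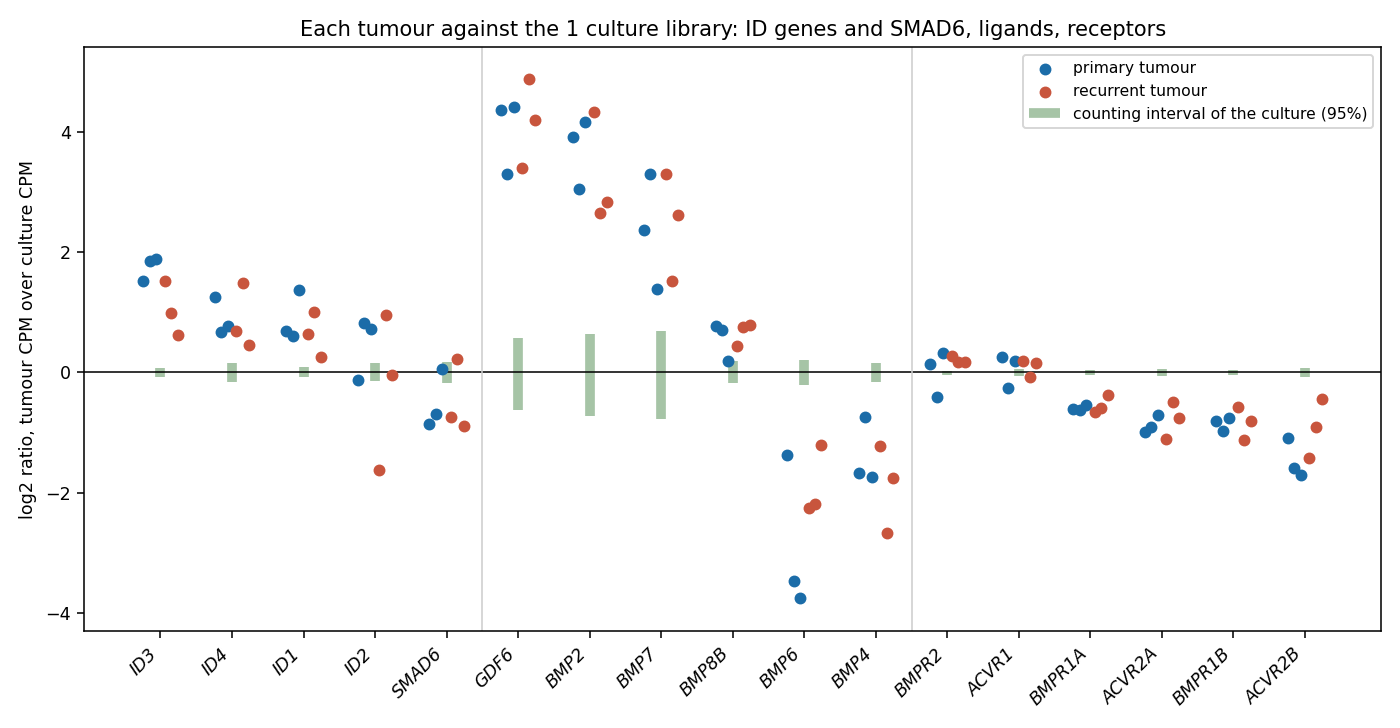
Log2 ratio of each tumour's level to that of the 1 culture library (y axis, from CPM of the library total) for ID genes and SMAD6, for ligands and for receptors, with 1 point per tumour and the exact Poisson 95% interval of the culture count as a green band. All 6 points lie above 0 for ID1, ID3, ID4, BMP2, BMP7 and GDF6 and below 0 for BMP4, BMP6 and BMPR1A.

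The third comparison asked which of these genes stood apart from what the control brains gave. Control replicates 1 and 2 gave few counts for any of them, and outside structural small RNAs those libraries held 100184 and 174353 counts in all. ID3 had 1 and 0 counts there, ID1 0 and 4, ID2 1 and 1, ID4 0 and 8, BMPR1A 1 and 1, BMPR2 4 and 13, and BMP2 and SMAD6 none. BMP4 had 17 and 14 counts, 12.5 and 8.22 library CPM, against at most 3.28 in a tumour. Scaled to the counts outside structural small RNAs, control replicate 2 had 45.9 CPM of ID4, above the 8.1 to 16.0 of the tumours, 22.9 of ID1 (tumours 25.5 to 52.8) and 74.6 of BMPR2 (tumours 101 to 161). On that scale BMP4 stood at 170 and 80.3 CPM in control replicates 1 and 2 and at 9.15 in control replicate 3, against 0.935 to 3.83 in the tumours, so it lay above every tumour in all 3 controls. Control replicate 3 had 39.4 library CPM of BMPR1A, 140 of BMPR2 and 42.3 of ID3, levels inside the tumour range, together with its 4.9% graft reads. ID2 was low there, with 3 counts, and BMP2 stood at 9.14 library CPM, above the 5.86 of the highest tumour. In edgeR's test of the 6 tumours against the 3 controls, 1 of the 9 tested genes passed, BMP4, which was lower in tumours. Of 16389 genes, 5.42% passed, 0.927% as higher and 4.5% as lower. The log2 difference of BMP4 was -5.23 (SE 0.91; edgeR adjusted p = 0.00545). The call was lost on library totals without TMM (-2.22, edgeR adjusted p = 0.0674), a scaling that moved the median log2 difference of all genes from 0.21 to 1.74. Without control replicate 3, 3 of the genes passed, with ID3 at 3.88 (edgeR adjusted p = 0.0341) and BMPR1A at 2.43 (0.0273) higher in tumours and BMP4 at -6.19 (7.05e-06) lower. In that fit 2644 genes passed, 1264 higher and 1380 lower, and the median log2 difference of all genes was 1.15. Its 2 controls held 1 and 0 counts of ID3 and 1 and 1 of BMPR1A. No share of all tested genes is given for that fit, so the 3 calls are not read as particular to these genes.

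Of all 16389 genes tested against the controls, 0.927% passed as higher and 4.5% as lower in tumours. The other 42 pathway genes tested gave 0 higher and 2 lower, near those shares. They were SMAD7, the second inhibitory SMAD (-6.02, SE 1.05, edgeR adjusted p = 0.00554), and FST (-5.44, SE 1.18, adjusted p = 0.0184), and the next by rank were ACVR2B (-3.32, SE 0.91, adjusted p = 0.0591) and SKI (adjusted p = 0.119). SMAD7 had 53, 16 and 31 counts in the 3 controls, and FST had 5, 6 and 1. The E protein TCF4 also passed as lower (-2.10, SE 0.41, edgeR adjusted p = 0.0096). No host reads were counted directly, so they were taken as a library's count total times its percentage of reads that were not graft. In control replicates 1 and 2 structural small RNAs made up 92.63% and 89.76% of that total. Scaled by this estimate, the median control level of BMP4 would give 114 to 138 counts per tumour, 138% to 545% of what was counted. Scaled instead by RBFOX3, a neuronal gene with 0 counts in the culture, 196 to 307 in the controls and 5 to 109 in the tumours, a form chosen after these counts were seen, it would give 0.357 to 7.79 counts, at most 16.2%. The 2 forms differ widely, so the host part of BMP4 in the tumours was not resolved. By the first form the host share in the tumour where it was largest was 1.51% for ID3, 6.93% for ID1 and 18.7% for ID4. It was 27.9% for ID2, 1.32% for BMPR1A and 4.86% for BMPR2. These are not upper bounds. The median control held 1 count for ID3, ID2 and BMPR1A, within the floor of 3 counts. Control replicate 3 had 176 counts of ID3 and 164 of BMPR1A, which the median leaves out. For BMP2 and SMAD6 the median control count was 0, which may still hold up to 3 counts, so no share is given for them.

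Per kilobase of the longest coding transcript, on library CPM, the order of levels in the tumours began with ID3 at 47.0 ± 14.6, ID1 at 27.0 ± 7.53 and BMPR2 at 11 ± 1.78 (SD, n = 6). Each of these 3 lay above the next gene in 6 of 6 tumours. ID4 at 4.32 ± 1.26, BMPR1A at 3.73 ± 0.266 and ID2 at 3.56 ± 1.77 followed, and their ranges over the tumours overlapped. Within tumours, ID4 lay above BMPR1A in 5 of 6 and BMPR1A above ID2 in 3 of 6. BMP2 at 1.01 ± 0.482, BMP4 at 1.0 ± 0.425 and SMAD6 at 0.789 ± 0.291 came next and also overlapped, and GREM1 was last. With the median transcript length in place of the longest, the first 3 places and the last were the same, while the order within the other genes changed. In the culture ID3 and ID1 stood at 17.1 and 15.5 per kilobase, BMPR2 at 10.0, BMPR1A at 5.50, BMP4 at 2.88 and BMP2 at 0.0811.

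Whether the ID genes vary together from tumour to tumour was examined over the 6 tumours, on log2(TMM CPM + 1), for 10 relations. None passed an exact two-sided permutation test after Benjamini-Hochberg adjustment. The closest was SMAD6 with ID1, with Pearson r = 0.82 (exact permutation p = 0.0417, adjusted p = 0.417) and Spearman rho = 0.89 (p = 0.0333, adjusted p = 0.333), and r was 0.60 without the 2 tumours farthest from the median of SMAD6. ID1 and ID3 gave r = 0.54 (exact permutation p = 0.275, adjusted p = 0.708) and rho = 0.54 (p = 0.297, adjusted p = 0.699), and r turned to -0.81 without the 2 farthest tumours, so that relation rests on primary replicate 3 and recurrent replicate 3. ID3 and ID4 gave r = -0.05 (exact permutation p = 0.933, adjusted p = 0.933) and rho = 0.09 (p = 0.919, adjusted p = 0.919). With 3 tumours in a group, no relation could be given within primary or recurrent tumours. Of 11166 genes with at least 5 TMM CPM, those with the pattern most like ID1 over the 6 tumours were ENSG00000286171 (r = 0.988), the Y RNA gene RNY4 (0.971), the phosphodiesterase PDE3A (0.965), the secreted protein SRPX2 (0.960) and the vacuolar sorting subunit VPS39 (0.959). PDE3A had 10.4 TMM CPM in primary replicate 3 and 2.77 in recurrent replicate 3, the same extremes as ID1. With so many genes and 6 tumours, 41 genes lay above r = 0.9, and the correlations are descriptions without a test.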

How the data were processed

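RNA was measured by sequencing of ribosome-depleted, strand-specific libraries, per the labels' protocols. The values, as deposited, are expected counts per gene in 1 table, unscaled between libraries. STAR, Salmon 1.10.3, DESeq2 and GRCh38 are named per the submitters' processing notes. The annotation release, each tool's settings and the xengsort read classes that entered the counts were not given in the sources used here. Gene types, lengths and coordinates came from GENCODE release 29, matched by gene ID for 58261 of 62754 genes.

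Groups came from the treatment label, and replicates were numbered in record order. The genes, lists and comparisons were chosen with earlier results of these data known. Counts were rounded and tested with edgeR 4.0.16 in R 4.3.3 (TMM, filterByExpr at its defaults, two-sided quasi-likelihood test, Benjamini-Hochberg adjustment over all tested genes, threshold 0.05). The SE is the log2 difference divided by the square root of F. Alternatives were DESeq2 1.42.0, limma-voom (limma 3.58.1), other scalings, no filter beyond a count above 0, the graft percentage as a covariate and each library left out. Named genes were the 10 above, other pathway genes called or, under 4 calls, the 4 of smallest p, and the 5 most like ID1. Others were named for their role or after their values were seen, as the text says. Intervals and floors describe counting error alone, because PCR copies were not told apart. The fits were tested on simulated counts. The test against controls used the 3 groups in 1 fit.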

Additional observations from a re-analysis of the deposited data

Results flagged for a closer look

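GREM1, the secreted antagonist, reached 0.521 TMM CPM (13 counts) in recurrent replicate 3, far from the other 5 tumours, which had 0 or 1 count. The gap to the next tumour was 0.953 of the whole range. Chance flags about 1 group in 20 by this measure, and 10 genes were examined.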

How the results depend on the processing

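No paired analysis was possible because replicate numbers were given in record order and name no shared animal or batch. The number of genes called between recurrent and primary tumours was 1 in the chosen fit, 117 in DESeq2, 411 with no low-count filter, and 0 with limma-voom, with the graft percentage as a covariate or with the controls in the fit. It ran from 0 to 23 with 1 tumour left out, the highest without recurrent replicate 1. The number of BMP and ID genes called there was 0 in all of these except 1 with no filter, ID3. Directions turned for small differences, and ranges are over single tumours left out. With the graft percentage as a covariate ID1 was 0.24 and ID2 0.22. ID4 was -0.0034 with limma-voom, -0.02 with upper-quartile scaling, and -0.06, -0.08 and -0.34 without primary replicate 2, primary replicate 3 and recurrent replicate 2 (range -0.34 to 0.19). SMAD6 was -0.03 with limma-voom, and -0.14, -0.03 and -0.37 without primary replicate 1, primary replicate 2 and recurrent replicate 2 (range -0.37 to 0.34). BMP2 was 0.0046 without recurrent replicate 2 (range -1.05 to 0.0046), BMPR1A -0.07 without recurrent replicate 3 (range -0.07 to 0.07) and BMPR2 -0.00062 without primary replicate 2 (range -0.00062 to 0.29). Against the controls, 889 genes were called in the chosen fit, 1385 in DESeq2, 425 on library totals, 2125 with no filter and 389 to 2644 with 1 library left out, the highest without control replicate 3 and the lowest without control replicate 1. Of the BMP and ID genes 1 was called, 0 on library totals, and 1 to 3 with 1 library left out. Without control replicate 3, ID2 was -0.12, ID4 -1.55 and BMP2 9.19, the last against 2 controls at 0. ID4 was -0.73 and BMPR2 -0.07 in DESeq2, BMP2 0.0049 on library totals, BMPR2 -0.15 without control replicate 1, and BMPR1A and BMPR2 both -0.13 without control replicate 2. The ranges with 1 library left out were -0.12 to 2.49 for ID2, -1.55 to 2.06 for ID4, -1.62 to 9.19 for BMP2, -0.13 to 2.43 for BMPR1A and -0.15 to 0.95 for BMPR2. Against the culture, all 72 alternatives for the 9 genes kept the direction and moved by less than the spread between tumours. Without the 2 farthest tumours, r was -0.81 for ID1 with ID3 and -0.16 for SMAD6 with ID4. Depth limits BMP2, BMP4 and SMAD6, with under 210 counts per tumour, and all values in control replicates 1 and 2.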
